A study of Homo sapiens with 10 samples.

Results

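The WNT pathway in cells labelled RD was followed through 61 genes, of 23228 genes with counts in the series table. Members were taken by gene symbol alone. They comprise the 19 WNT ligands of the table, 10 Frizzled receptors and the 2 co-receptors LRP5 and LRP6. They further comprise 13 antagonists (DKK, SFRP and KREMEN genes, WIF1, APCDD1 and NOTUM), 8 genes of the R-spondin axis, the 5 intracellular genes AXIN1, AXIN2, NKD1, NKD2 and CTNNB1, and the 4 TCF and LEF factors. Of these 61 genes, 41 passed the filter on low counts and were tested, and 20 did not.

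RD is an established human line from a rhabdomyosarcoma, a soft tissue tumour with features of developing skeletal muscle. The ERK inhibitor group received SCH772984, an inhibitor of the ERK kinases, at 300 nM for 24 h, and its controls received DMSO for the same time. NRAS, a small GTPase that activates the kinase cascade ending in ERK, was targeted with NRAS siRNA 1 or NRAS siRNA 2, and controls received a nonspecific (NS) siRNA, each at 10 nM with harvest at 48 h. All 5 groups are the same line in the same medium, with 2 libraries each and 10 in all, and the siRNA groups, NS siRNA included, also carry the lipid transfection. Whether the replicates are separate cultures is not stated in the labels, so a p-value here reflects only how far these libraries differ, and that difference may be technical.

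WNT proteins are secreted, lipid-modified ligands that bind Frizzled receptors. With LRP5 or LRP6 as co-receptor they stop the AXIN complex from marking β-catenin for destruction, and β-catenin then acts with TCF and LEF factors on target genes, among them the feedback inhibitors AXIN2, NKD1 and NOTUM. R-spondins bind LGR4 and LGR5 and hold back the ubiquitin ligases ZNRF3 and RNF43, which otherwise remove Frizzleds from the cell surface. WNT5A, WNT5B and WNT11 are best known for signalling that does not run through β-catenin. In the embryo WNT signals take part in the patterning of muscle precursors.

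The libraries held 23224063 to 30768970 counts assigned to genes, and 3 counts in a library, used as the floor, correspond to 0.0975 to 0.129 CPM (counts scaled to library size, after TMM correction). NRAS stood at 52.4 and 52.2 CPM with siRNA 1 and at 51.0 and 48.0 CPM with siRNA 2, against 219.7 and 272 CPM with NS siRNA. DUSP6, an ERK phosphatase and a standard readout of ERK output, stood at 13.5 and 9.28 CPM with the ERK inhibitor, against 292 and 265 CPM with DMSO. Among 14 skeletal muscle markers DES, PAX3, FGFR4 and TNNT1 were well covered. The defining muscle regulators MYOD1 and MYOG had at most 5 and 3 counts in a library, however, and MYF5 had 0 in all 10. The libraries thus lack the regulators that the muscle lineage label implies. That the cells are RD rests on the labels and was not tested, which leaves their identity in doubt. The summed level of the 14 was 101 to 102 CPM with the inhibitor and 102 to 106 CPM with DMSO. Of the 7 tested, ACTC1 was higher with the inhibitor (19 and 47 counts, against 3 and 2 with DMSO) and CHRNA1 lower (1 and 2 counts, against 17 and 14), and CHRNA1 was also lower with the siRNA mean. Markers of other tissues moved with the ERK inhibitor. The summed level of 5 bone markers was 71.6 to 72.1 CPM with the inhibitor and 24.9 to 29.6 CPM with DMSO, with 2 of 3 tested markers higher (ALPL and IBSP). RUNX2 went the other way, at 8.10 and 9.14 CPM with the inhibitor against 12.1 and 10.1 CPM with DMSO, and did not pass. SP7 and BGLAP had at most 9 and 4 counts. The summed level of 4 smooth muscle markers was 28.2 to 45.8 CPM with the inhibitor and 8.54 to 10.6 CPM with DMSO, with all 3 tested markers higher (ACTA2, CNN1 and MYOCD), and MYH11 had at most 11 counts in any library. Sums stayed low for 5 epithelial markers (2.35 to 2.36 CPM with the inhibitor, 1.71 to 2.24 CPM with DMSO) and for 6 blood and endothelial markers (3.16 to 3.89 CPM with the inhibitor, 4.62 to 4.93 CPM with DMSO). Of the 2 tested markers of the last list, VWF was higher with the inhibitor (20 and 23 counts, against 7 and 2 with DMSO) and CD68 lower (50 and 79 counts, against 93 and 126). With the siRNAs the bone sum was 25.7 to 27.7 CPM for siRNA 1, 30.8 to 33.7 CPM for siRNA 2 and 24.8 to 27.6 CPM for NS siRNA, and 1 of 3 tested bone markers (ALPL) was higher in the mean of both siRNAs. RUNX2 stood at 5.45 and 7.28 CPM with siRNA 1 and 7.93 and 10.8 CPM with siRNA 2, against 12.4 and 10.6 CPM with NS siRNA, and did not pass. IBSP, ACTC1, MYOCD and VWF passed the filter on low counts only through the ERK inhibitor libraries, where they were high, and CHRNA1 only through control libraries. Their calls are therefore not independent of that filter. The part of these markers in the results that follow was not tested. In bulk RNA fewer cells with a transcript and less of it per cell cannot be told apart.

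With ERK inhibition more of the WNT transcripts rose than fell. Differences were tested with edgeR's quasi-likelihood test in 1 fit over all 10 libraries, with Benjamini-Hochberg adjustment over all 14761 genes tested and a threshold of 0.05. Fold changes are given on the log2 scale, with their standard error (SE). Whether the libraries of a comparison overlapped is stated as a description only, since its share over all genes was not counted. Members without a call, among them LEF1, FZD5, DKK3 and KREMEN1, also showed no overlap between inhibitor and DMSO libraries. Of the 41 tested members 21 passed the threshold with the ERK inhibitor, 16 higher and 5 lower, where 28.0% of all genes passed (13.2% higher and 14.8% lower). Among the 16 is RSPO2, which passed the filter on low counts only through treated libraries, where it was high. The members were chosen with earlier results of these data known, so these counts are a description. The median log2 fold change was 0.18 over the members and 0.00 over all genes. With the mean of both NRAS siRNAs 10 members passed, 4 higher and 6 lower, where 7.95% of all genes passed (2.97% higher and 4.99% lower), and the medians were -0.08 over the members and -0.01 over all genes. The siRNA count fell without any 1 of the 6 libraries compared. Each such fit leaves 1 library in a group and fewer residual degrees of freedom, so calls can be lost through lower power alone. Over all 12 alternatives the siRNA mean stayed between -0.299 and -0.252 for SFRP1 and between -0.342 and -0.297 for FZD1. SFRP1 nevertheless lost its call in 10 of the 12 and FZD1 in 7. The other falls ranged more widely. They ran from -0.480 to -0.355 for AXIN1, -0.658 to -0.300 for WNT5B, -0.705 to -0.435 for LRP5 and -2.65 to -1.60 for WNT7B. By role, 5 of 8 ligands, 3 of 9 Frizzleds, 4 of 8 antagonists, 4 of 5 genes of the R-spondin axis, 3 of 5 intracellular genes, 2 of 4 TCF and LEF factors and 0 of 2 co-receptors passed with the inhibitor (by unadjusted p, also 0 co-receptors).

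**Figure D1:**
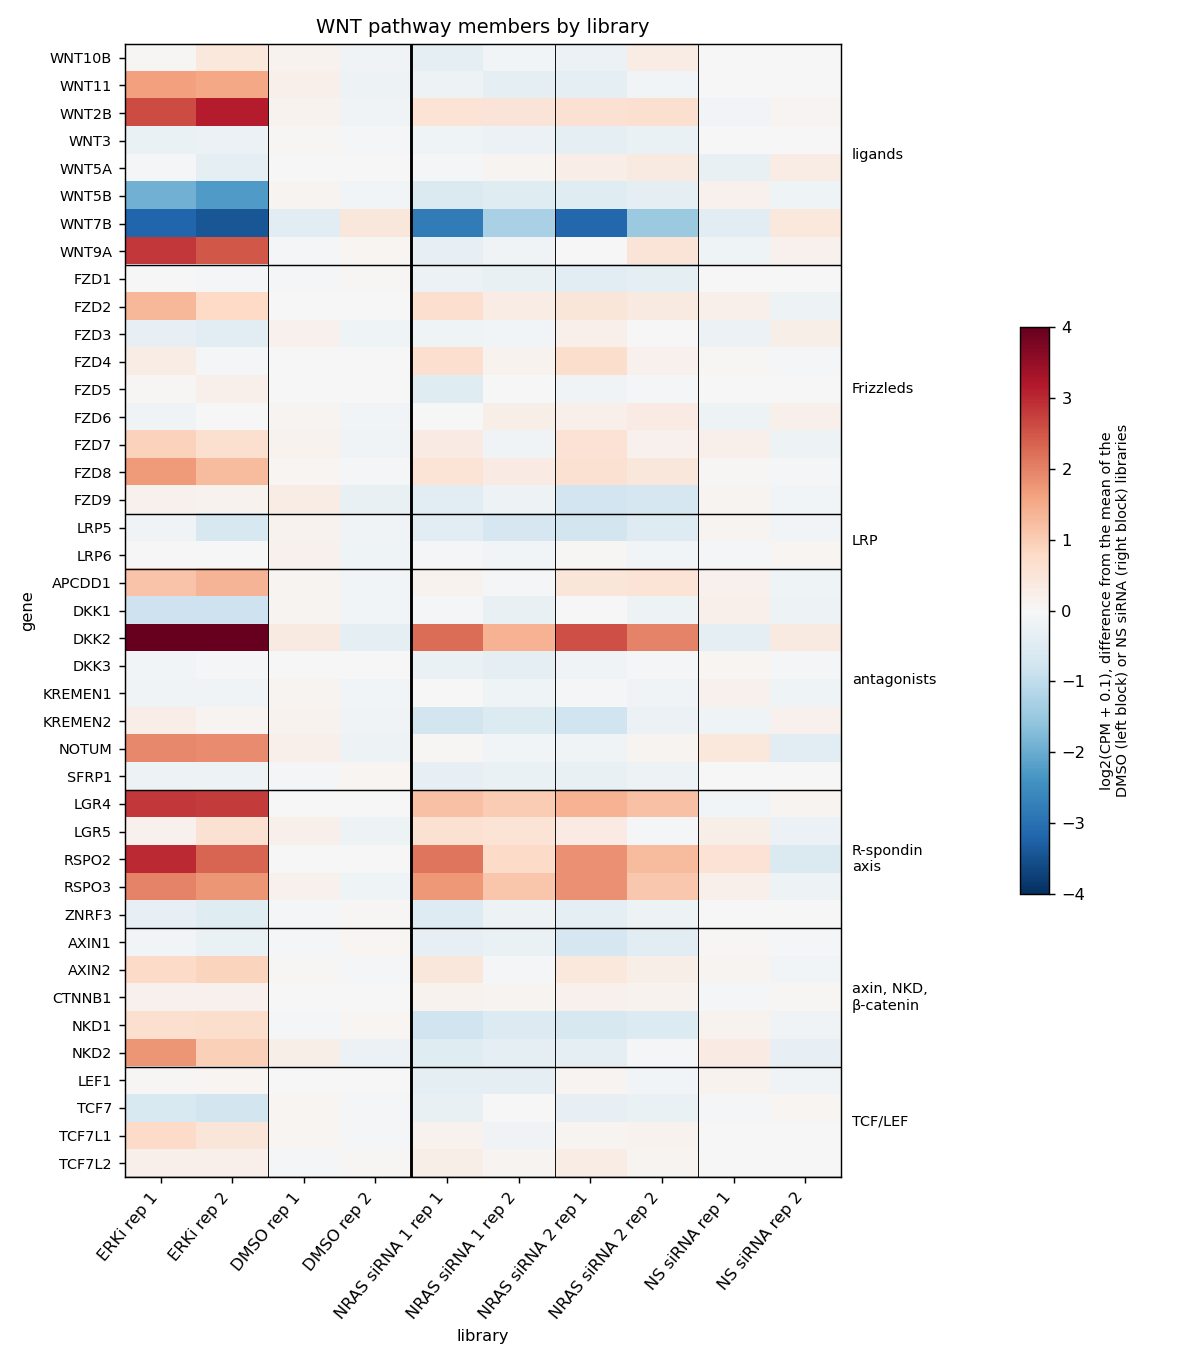
Level of each of the 41 tested WNT members (rows, grouped by role) in every library (columns), as the difference in log2(CPM + 0.1) from the mean of the DMSO libraries (left 4 columns) or of the NS siRNA libraries (right 6 columns), with red higher and blue lower and colours ending at 4. The ERK inhibitor columns hold most of the strong colours, and DKK2, LGR4, RSPO2 and RSPO3 are red and WNT7B blue in every treated library.

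The R-spondin axis held the most precisely measured rise. LGR4, the R-spondin receptor with the most transcript in these cells, stood at 436 and 432 CPM in the ERK inhibitor libraries, against 62.3 and 60.8 CPM in DMSO libraries. It stood at 129.8 and 118 CPM with NRAS siRNA 1 and at 152 and 131 CPM with siRNA 2, against 53.3 and 63.3 CPM with NS siRNA. Every treated library lay above every control library, and the siRNA libraries lay between the controls and the ERK inhibitor libraries. The log2 fold change was 2.82 (SE 0.11, edgeR adjusted p = 9.63e-07) with the ERK inhibitor, a 7.05-fold higher level. It was 1.09 (SE 0.11, adjusted p = 0.00199) with siRNA 1, 1.28 (SE 0.11, adjusted p = 0.000766) with siRNA 2 and 1.19 (SE 0.10, adjusted p = 0.00057) for their mean. LGR4 kept its call in each of these comparisons when any 1 library was left out. Per kilobase of exon, the scale on which genes can be compared, LGR4 averaged 82.8 CPM with the inhibitor and 11.7 CPM with DMSO, and its relative LGR5 6.55 and 4.98 CPM.

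RSPO3, an R-spondin ligand, stood at 66.9 and 57.0 CPM with the ERK inhibitor, against 18.7 and 14.8 CPM with DMSO. It stood at 42.8 and 27.3 CPM with siRNA 1 and at 45.3 and 26.7 CPM with siRNA 2, against 14.7 and 10.9 CPM with NS siRNA. No treated library overlapped its controls, although replicate 1 was higher than replicate 2 in every group. RSPO3 rose by 1.89 (SE 0.28, edgeR adjusted p = 0.00111) with the inhibitor, by 1.45 (SE 0.28, adjusted p = 0.0318) with siRNA 1 and by 1.49 (SE 0.28, adjusted p = 0.0185) with siRNA 2. The mean siRNA call (1.47, SE 0.26, adjusted p = 0.0121) was lost without NS siRNA replicate 1 (adjusted p = 0.062) and without NS siRNA replicate 2 (adjusted p = 0.073). Without replicate 1 of its own siRNA the rise was 1.09 with siRNA 1 (adjusted p = 0.243) and 1.06 with siRNA 2 (adjusted p = 0.180), and both siRNA calls were also lost without either NS siRNA library. RSPO2, another R-spondin of lower level, stood at 2.47 and 1.54 CPM with the inhibitor, against 0.220 and 0.228 CPM with DMSO. The inhibitor raised it by 3.13 (SE 0.59, adjusted p = 0.00383). RSPO2 had 5 and 6 counts with DMSO and 5 and 1 with NS siRNA. It passed the filter on low counts only through treated libraries, where it was high, so its call is not independent of that filter. Without the filter the inhibitor call was kept. In the siRNA libraries RSPO2 lay between 0.252 and 0.809 CPM, all above the 0.207 and 0.0383 CPM of NS siRNA, and its mean difference of 2.09 (SE 0.72) did not pass (adjusted p = 0.0997). It passed without the filter on low counts (2.11, adjusted p = 0.0335).

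The receptor LGR5 and the ligase ZNRF3 did not rise past the threshold. LGR5, also a receptor for R-spondins, stood at 25.9 and 34.5 CPM with the inhibitor, against 26.0 and 19.9 CPM with DMSO, and did not pass (0.40, SE 0.21, edgeR adjusted p = 0.183). ZNRF3, the ligase that R-spondins hold back, fell to 29.3 and 26.2 CPM with the inhibitor, against 35.2 and 38.1 CPM with DMSO (-0.40, SE 0.13, adjusted p = 0.0385). That small fall lost its call in 5 of 10 alternatives, among them those without any 1 of the 4 libraries compared. With the siRNAs ZNRF3 lay between 27.7 and 34.0 CPM, below the 40.1 and 38.4 CPM of NS siRNA, and did not pass (adjusted p = 0.0973). RNF43, RSPO1 and RSPO4 had at most 4 counts in any library.

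Promoter windows of 3 members are shown: LGR4 and RSPO3, which were higher in both kinds of treatment, and DKK1, described next, which was lower with the ERK inhibitor. DKK1 was chosen after the motif search, as the 1 member whose window held the marked motif, and other members changed more. They run from 250 bases before to 50 bases after the RefSeq start (GRCh38.p14) and are written 5′ to 3′ on the gene's strand, at chr11:27472741-27473040 (minus strand) for LGR4, chr6:127118421-127118720 (plus strand) for RSPO3 and chr10:52314031-52314330 (plus strand) for DKK1. Capitals mark CTTTGA, the core letters of TCF and LEF sites, on either strand, so that TCAAAG is the same motif on the opposite strand.
LGR4 promoter: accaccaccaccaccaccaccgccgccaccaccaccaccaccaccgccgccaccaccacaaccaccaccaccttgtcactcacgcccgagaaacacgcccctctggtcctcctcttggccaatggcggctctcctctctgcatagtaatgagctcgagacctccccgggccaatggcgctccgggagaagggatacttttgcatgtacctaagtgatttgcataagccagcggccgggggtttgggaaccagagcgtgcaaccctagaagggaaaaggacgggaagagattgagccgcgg
RSPO3 promoter: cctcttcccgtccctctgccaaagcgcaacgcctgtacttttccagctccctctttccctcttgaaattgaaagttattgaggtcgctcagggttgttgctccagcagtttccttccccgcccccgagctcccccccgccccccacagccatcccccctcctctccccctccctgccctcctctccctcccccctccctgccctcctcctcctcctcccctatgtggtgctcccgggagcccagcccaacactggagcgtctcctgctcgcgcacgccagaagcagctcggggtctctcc
DKK1 promoter: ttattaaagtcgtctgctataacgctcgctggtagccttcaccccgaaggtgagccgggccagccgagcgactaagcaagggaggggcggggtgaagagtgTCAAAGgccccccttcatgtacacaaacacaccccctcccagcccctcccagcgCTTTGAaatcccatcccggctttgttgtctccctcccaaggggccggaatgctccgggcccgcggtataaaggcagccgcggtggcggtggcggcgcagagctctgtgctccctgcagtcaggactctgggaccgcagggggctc

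RefSeq windows were found for 40 of the 61 members, 47 windows in all. A member counts once if any of its windows held a match, whereas the share over all promoters counts each window, so the scales differ. CTTTGA was found in 1 of these 40, DKK1, at positions -149 and -95 from the start, and in 12.9% of the 35114 promoters of the table. TGANTCA, the AP-1 motif, was found in 1 member, RNF43, at -47, and in 7.71% of all promoters. CCGGAAG, a core motif of ETS factors, was found in AXIN1, at -226 and 2, and in TCF7, at -49, and in 10.3% of all promoters. Both strands were searched, and no match overlapped another. None of the 8 matched members that rose with the ERK inhibitor held any of these motifs in its window, and of the 3 that fell DKK1 and TCF7 held one. Only 8 of the 16 members that rose had a window, and DKK2, AXIN2, NKD1 and NOTUM were among those without. These are matches of letters in short windows, and binding was not measured.

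Among antagonists DKK2 and DKK1 moved in opposite directions. DKK2, a secreted protein of the Dickkopf family that binds LRP5 and LRP6, stood at 28.5 and 31.5 CPM with the ERK inhibitor, against 1.58 and 0.911 CPM with DMSO. It stood at 5.95 and 3.28 CPM with siRNA 1 and at 7.71 and 5.05 CPM with siRNA 2, against 0.91 and 1.57 CPM with NS siRNA. The groups did not overlap in either experiment, and the ERK inhibitor libraries stood far above the siRNA libraries. The log2 fold change was 4.60 (SE 0.37, edgeR adjusted p = 2.85e-05) with the inhibitor, a 24.3-fold higher level and the greatest change of any tested member. It was 1.88 (SE 0.38, adjusted p = 0.0372) with siRNA 1 and 2.35 (SE 0.38, adjusted p = 0.0102) with siRNA 2. Without NS siRNA replicate 1 these became 1.58 (adjusted p = 0.167) and 2.04 (adjusted p = 0.0671), and the mean of 2.12 became 1.81 (adjusted p = 0.0803). The siRNA 1 call was also lost without NS siRNA replicate 2 (adjusted p = 0.0768) and siRNA 1 replicate 1 (adjusted p = 0.277), and the siRNA 2 call without siRNA 2 replicate 1 (adjusted p = 0.0996).

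DKK1, the best known inhibitor of LRP5 and LRP6, was by far the most abundant antagonist. It fell to 665 and 666 CPM with the ERK inhibitor, against 1293 and 1096 CPM with DMSO (-0.84, SE 0.15, edgeR adjusted p = 0.00247), with no overlap between the groups. With the siRNAs it lay at 919 and 784 CPM (siRNA 1) and 957 and 840.0 CPM (siRNA 2), against 1113 and 825 CPM with NS siRNA, and the groups overlapped (adjusted p = 0.487 for the mean). Per kilobase of exon, DKK1 made up 82.8 and 82.3% of the summed level of the 8 tested antagonists with the inhibitor, against 90.6 and 88.9% with DMSO. DKK2 stood at 7.54 CPM per kilobase with the inhibitor and at 0.314 CPM per kilobase with DMSO, so that DKK1 at 372 CPM per kilobase still far exceeded it.

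NOTUM, an enzyme that removes the lipid from WNT proteins, and APCDD1, a membrane inhibitor of WNT signalling, rose with the ERK inhibitor. NOTUM stood at 4.60 and 4.47 CPM with the inhibitor, against 1.32 and 0.987 CPM with DMSO (1.98, SE 0.30, edgeR adjusted p = 0.00114). APCDD1 stood at 4.53 and 5.29 CPM with the inhibitor, against 2.16 and 1.86 CPM with DMSO (1.29, SE 0.21, adjusted p = 0.00178). In neither gene did inhibitor and DMSO libraries overlap. With the mean of both siRNAs their log2 differences were -0.08 and 0.29 (adjusted p = 0.885 and 0.358). SFRP1, a secreted decoy for WNT ligands, fell by 0.28 (SE 0.07, adjusted p = 0.0459) with the siRNA mean. It stood at 125 and 129 CPM with siRNA 1 and at 127 and 136 CPM with siRNA 2, against 155 and 158 CPM with NS siRNA. This small difference lost its call in 10 of 12 alternatives. It was lost without any 1 of the 6 libraries compared, and also in fits that kept all of them. DKK3, KREMEN1 and KREMEN2, the KREMEN proteins being cell surface partners of DKK1, did not pass in either comparison.

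**Figure D2:**
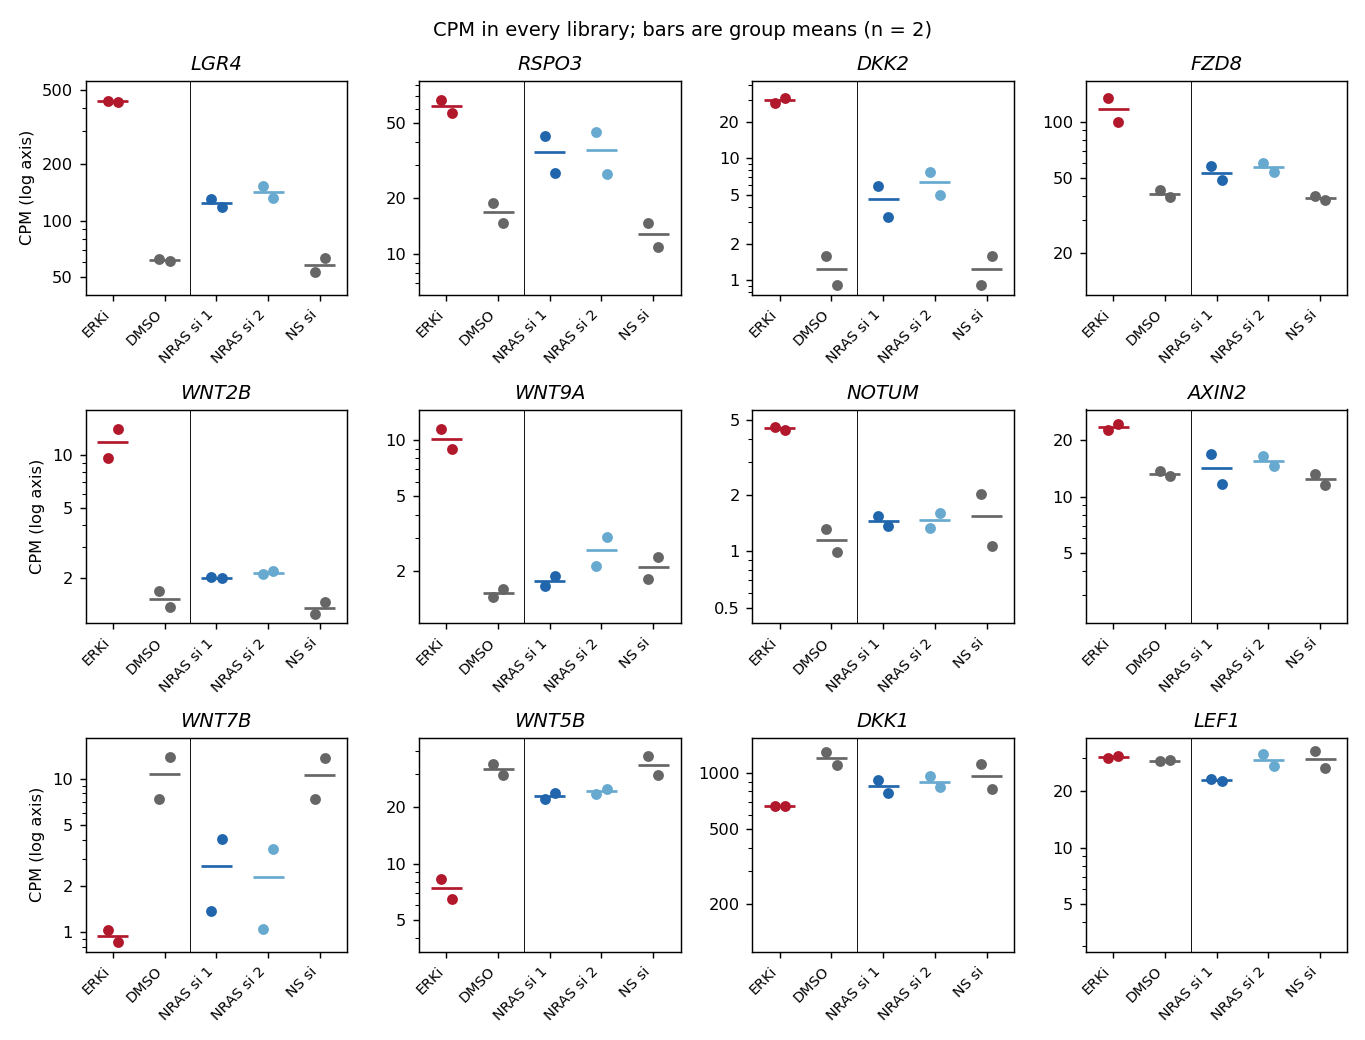
CPM of 12 members in every library on a log axis, with ERK inhibitor (ERKi) and DMSO left of the line in each panel and NRAS siRNA 1, NRAS siRNA 2 and nonspecific (NS) siRNA right of it; points are libraries and bars group means (n = 2). LGR4, RSPO3, DKK2 and FZD8 are higher in every treated library, WNT2B, WNT9A and NOTUM stand apart with the ERK inhibitor, and WNT7B and WNT5B are lower in every treated library.

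The ligands that responded did so in both directions. WNT2B stood at 9.70 and 14.1 CPM with the ERK inhibitor, against 1.67 and 1.37 CPM with DMSO (2.97, SE 0.23, edgeR adjusted p = 2.43e-05). WNT9A stood at 11.4 and 8.90 CPM with the inhibitor, against 1.45 and 1.59 CPM with DMSO (2.73, SE 0.25, adjusted p = 5.41e-05). WNT11 stood at 2.32 and 2.15 CPM with the inhibitor, against 0.792 and 0.569 CPM with DMSO (1.72, SE 0.27, adjusted p = 0.00158). In all 3 ligands both inhibitor libraries lay above both DMSO libraries. With the siRNAs WNT2B lay at 1.98 to 2.17 CPM, above the 1.24 and 1.45 CPM of NS siRNA, and did not pass (0.61, SE 0.23, adjusted p = 0.125). The mean siRNA differences of WNT9A and WNT11 were 0.02 and -0.30 (adjusted p = 0.971 and 0.526).

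WNT7B and WNT5B fell in both experiments. WNT7B, a ligand that can signal through β-catenin, stood at 1.03 and 0.853 CPM with the ERK inhibitor, against 7.39 and 13.9 CPM with DMSO. It stood at 1.37 and 4.0 CPM with siRNA 1 and at 1.05 and 3.49 CPM with siRNA 2, against 7.41 and 13.6 CPM with NS siRNA. All treated libraries were below their controls, and replicate 2 was above replicate 1 in all groups but the inhibitor. The log2 fold change was -3.51 (SE 0.65, edgeR adjusted p = 0.00346) with the inhibitor and -2.10 (SE 0.46, adjusted p = 0.027) for the siRNA mean. With siRNA 2 it was -2.23 (SE 0.58, adjusted p = 0.0486), and with siRNA 1 it was -1.97 (SE 0.57) and did not pass (adjusted p = 0.110). Without the filter on low counts the siRNA 1 value was -1.95 and passed (adjusted p = 0.00246). The siRNA mean call was lost in 5 of 12 alternatives. Among them were the fits without NS siRNA replicate 1 (-2.45), NS siRNA replicate 2 (-1.60), siRNA 1 replicate 1 (-1.81) or siRNA 2 replicate 1 (-1.78). Without siRNA 2 replicate 1 the siRNA 2 value was -1.59 (adjusted p = 0.353), and that call was lost without either NS siRNA library too.

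WNT5B fell to 8.26 and 6.48 CPM with the ERK inhibitor, against 34.1 and 29.8 CPM with DMSO (-2.12, SE 0.16, edgeR adjusted p = 2.31e-05). It stood at 22.2 and 23.9 CPM with siRNA 1 and at 23.4 and 25.1 CPM with siRNA 2, against 37.3 and 29.5 CPM with NS siRNA. The siRNA libraries lay between the inhibitor and control libraries and overlapped neither. The siRNA mean was -0.50 (SE 0.13) and only just passed (adjusted p = 0.0457). That call was lost in 8 of 12 alternatives, some of which kept all libraries compared. Among them were the fits without NS siRNA replicate 1, where the value was -0.30, and without any 1 of the 4 NRAS siRNA libraries.

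WNT5A, the most abundant tested ligand per kilobase of exon, did not pass in either comparison. It stood at 130.2 and 107 CPM with the ERK inhibitor, against 136 and 140.1 CPM with DMSO (-0.22, SE 0.17, edgeR adjusted p = 0.359). As a share of the summed level of the 8 tested ligands per kilobase, WNT5A held 63.2 and 59.5% with the inhibitor, against 51.9 and 54.1% with DMSO. The share of WNT5B was 9.88 and 8.89% with the inhibitor, against 32.1 and 28.3% with DMSO, and that of WNT9A 8.86 and 7.92%, against 0.887 and 0.984%. The shares of WNT5A and WNT9A were thus higher and that of WNT5B lower with the inhibitor, and WNT5A led in all 4 libraries. WNT3 and WNT10B did not pass in either comparison.

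**Figure D3:**
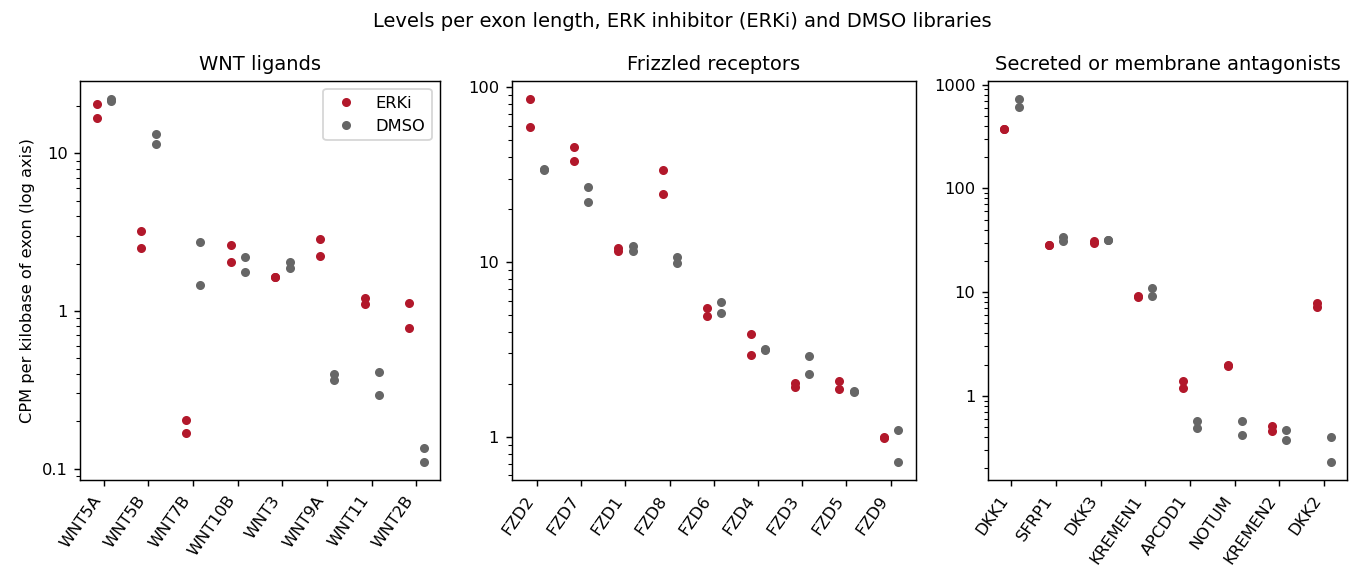
Level per kilobase of exon (CPM, log axis) of the tested ligands, Frizzled receptors and antagonists, with ERK inhibitor (ERKi) libraries left of DMSO libraries for each gene and genes ordered by their DMSO mean; points are libraries (n = 2 a group). WNT5A, FZD2 and DKK1 lead their families in every library shown, and WNT9A, WNT11, WNT2B, NOTUM and DKK2 are among the genes of lower level that stand well above DMSO with the inhibitor.

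The other 11 ligands were not tested. WNT1, WNT2, WNT10A, WNT16, WNT7A, WNT8A, WNT8B and WNT9B had at most 4 counts in any library. WNT6 had 8 and 5 counts with the ERK inhibitor and 0 in both DMSO libraries, and it passed when the filter on low counts was dropped (edgeR adjusted p = 0.025). WNT4 had 9 and 7 counts with the inhibitor, against 3 and 2 with DMSO, and WNT3A had 5 and 8, against 2 and 2. All 3 ligands were thus counted more often with the inhibitor, at levels close to the floor of 3 counts. Other ligands near the floor went the other way. WNT1 had 0 and 1 counts with the inhibitor, against 4 and 2 with DMSO, and WNT16 had 0 and 1, against 2 and 2. Of untested antagonists DKK4 had at most 1 count, SFRP5 had 0 everywhere, and WIF1 and SFRP4 had at most 5 and 7. SFRP2 had 4 and 1 counts with the inhibitor, against 0 and 0 with DMSO, and it had 1 and 7 with siRNA 1 and 5 and 3 with siRNA 2, against 0 and 0 with NS siRNA. FZD10 had 0 in all 10 libraries.

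Of 9 tested Frizzled receptors, 3 rose with the ERK inhibitor and none fell. FZD8 stood at 134 and 99.2 CPM with the inhibitor, against 43.2 and 39.5 CPM with DMSO (1.50, SE 0.15, edgeR adjusted p = 0.000109). FZD2 stood at 180.3 and 125 CPM with the inhibitor, against 71.3 and 71.5 CPM with DMSO (1.09, SE 0.19, adjusted p = 0.00243). FZD7 stood at 176 and 145 CPM with the inhibitor, against 104 and 85.0 CPM with DMSO (0.77, SE 0.21, adjusted p = 0.0205). No inhibitor library of these receptors reached down to a DMSO library. The FZD7 call was lost without DMSO replicate 2 (0.66, adjusted p = 0.135) and without ERK inhibitor replicate 1 (0.62, adjusted p = 0.146). Per kilobase of exon, FZD2 and FZD7 were the most abundant Frizzleds in both groups, at 72.2 and 41.6 CPM with the inhibitor and 33.8 and 24.5 CPM with DMSO. FZD8 held 17.5 and 16.8% of the summed Frizzled level per kilobase with the inhibitor, against 10.96 and 10.8% with DMSO.

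With the siRNAs FZD8 stood at 57.6 and 48.7 CPM (siRNA 1) and 60.1 and 53.7 CPM (siRNA 2), against 40.3 and 38.1 CPM with NS siRNA. Its mean rise of 0.49 (SE 0.13, edgeR adjusted p = 0.0495) stood at the threshold. It was lost in 6 of 12 alternatives, among them those without NS siRNA replicate 1, NS siRNA replicate 2, siRNA 1 replicate 1 or siRNA 2 replicate 1. FZD1 fell to 69.0 and 65.9 CPM with siRNA 1 and 60.8 and 63.4 CPM with siRNA 2, against 81.4 and 80.6 CPM with NS siRNA. The siRNA mean was -0.32 (SE 0.07, adjusted p = 0.0289) and siRNA 2 alone -0.38 (SE 0.09, adjusted p = 0.0309). The mean call was lost in 7 of 12 alternatives, among them those without any 1 NS siRNA or siRNA 1 library or siRNA 2 replicate 1. The siRNA 2 call was lost in 5 of 10, among them those without any 1 of its 4 libraries. With the inhibitor FZD1 differed by -0.01 (SE 0.09, adjusted p = 0.943). FZD2 stood at 92.4 and 71.2 CPM with siRNA 1 and 80.2 and 74.4 CPM with siRNA 2, against 66.01 and 50.7 CPM with NS siRNA. All 4 siRNA libraries lay above both NS siRNA libraries, and the mean difference of 0.45 (SE 0.17) did not pass (adjusted p = 0.123) but passed without the filter on low counts (0.47, adjusted p = 0.0295). FZD3, FZD4, FZD5, FZD6 and FZD9 did not pass in either comparison.

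FZD6 was the 1 member that differed between the control groups, where 0.379% of all genes passed. It stood at 34.7 and 45.7 CPM with NS siRNA, against 23.1 and 19.999 CPM with DMSO (0.90, SE 0.15, edgeR adjusted p = 0.0444). That call was lost without NS siRNA replicate 2 (0.69, adjusted p = 0.182), DMSO replicate 1 (1.01, adjusted p = 0.107) or DMSO replicate 2 (0.81, adjusted p = 0.331). Transfection and time since treatment differ together between these controls and cannot be told apart.

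Of the co-receptors LRP5 passed, with the siRNA mean, and LRP6 did not pass. LRP6 stood at 119.9 and 120.5 CPM with the ERK inhibitor, against 136 and 105 CPM with DMSO, a difference of 0.00 on the log2 scale (SE 0.12, edgeR adjusted p = 0.996) whose sign depends on the scaling. With the siRNA mean LRP6 differed by -0.05 (SE 0.11, adjusted p = 0.807). LRP5 fell to 73.8 and 61.7 CPM with siRNA 1 and 60.2 and 70.0 CPM with siRNA 2, against 108 and 91.1 CPM with NS siRNA. Its mean difference was -0.59 (SE 0.15, adjusted p = 0.0445), with no overlap between groups. The LRP5 call was lost in 7 of 12 alternatives, not all of which left out a library. Among them were the fits without NS siRNA replicate 1 (-0.44), NS siRNA replicate 2, either siRNA 1 library or siRNA 2 replicate 1. With the inhibitor LRP5 differed by -0.37 (SE 0.18) and did not pass (adjusted p = 0.145).

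The intracellular feedback genes rose modestly with the ERK inhibitor. AXIN2, a scaffold of the β-catenin destruction complex and a widely used target gene of the pathway, stood at 22.6 and 24.5 CPM with the inhibitor, against 13.7 and 12.8 CPM with DMSO (0.83, SE 0.18, edgeR adjusted p = 0.00685). NKD2, which like NKD1 encodes a protein that binds Dishevelled, stood at 7.12 and 4.03 CPM with the inhibitor, against 2.38 and 1.71 CPM with DMSO (1.45, SE 0.32, adjusted p = 0.00894). NKD1 stood at 2.17 and 2.25 CPM with the inhibitor, against 1.28 and 1.44 CPM with DMSO (0.70, SE 0.23, adjusted p = 0.0484). Inhibitor and DMSO libraries did not overlap in any of these genes, nor in AXIN1 and CTNNB1, which did not pass with the inhibitor. The AXIN2 call was lost without DMSO replicate 2 (0.80, adjusted p = 0.0534). The NKD2 call was lost without DMSO replicate 2 (1.25) or ERK inhibitor replicate 1 (0.99). The NKD1 call was lost in 7 of 10 alternatives. It was lost without any 1 of the 4 libraries compared, and also in fits that kept all of them.

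With the siRNAs none of these feedback genes passed as higher. AXIN2 stood at 16.9 and 11.6 CPM with siRNA 1 and 16.5 and 14.7 CPM with siRNA 2, against 13.2 and 11.6 CPM with NS siRNA, and did not pass (0.27, SE 0.15, edgeR adjusted p = 0.302). NKD1 stood at 1.23 and 1.48 CPM with siRNA 1 and 1.36 and 1.49 CPM with siRNA 2, against 2.44 and 1.99 CPM with NS siRNA. The NKD1 libraries of both siRNAs lay below the NS siRNA libraries, and the mean difference of -0.67 (SE 0.20) did not pass (adjusted p = 0.0635). AXIN1, the constitutive scaffold, fell to 39.9 and 41.9 CPM with siRNA 1 and 31.8 and 36.9 CPM with siRNA 2, against 52.0 and 48.6 CPM with NS siRNA. Its siRNA mean was -0.42 (SE 0.10, adjusted p = 0.0284) and its value with siRNA 2 -0.55 (SE 0.11, adjusted p = 0.0232). The mean call was lost in 6 of 12 alternatives, among them those without either NS siRNA library, either siRNA 1 library or siRNA 2 replicate 1. The siRNA 2 call was lost in 3 of 10, among them those without NS siRNA replicate 1 or siRNA 2 replicate 1.

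CTNNB1, which encodes β-catenin, stood at 801 and 806 CPM with the ERK inhibitor, against 702 and 721 CPM with DMSO. Both inhibitor libraries were higher, and the small difference of 0.18 (SE 0.07) did not pass (edgeR adjusted p = 0.0913). With upper-quartile scaling it was 0.23 and passed (adjusted p = 0.0398). CTNNB1 transcript does not report the amount of β-catenin protein, which is set largely by its destruction. Of the TCF and LEF factors, TCF7L1, best known as a repressor, stood at 41.9 and 34.7 CPM with the inhibitor, against 26.2 and 23.3 CPM with DMSO (0.63, SE 0.13, adjusted p = 0.00701). TCF7 stood at 14.6 and 13.3 CPM with the inhibitor, against 23.5 and 20.9 CPM with DMSO (-0.67, SE 0.14, adjusted p = 0.00669). Neither pair of groups overlapped, and the TCF7L1 call was lost without DMSO replicate 2 (0.57, adjusted p = 0.0594) or ERK inhibitor replicate 1 (0.49, adjusted p = 0.0726). LEF1, both a factor and a target of the pathway, stood at 30.2 and 30.9 CPM with the inhibitor, against 29.1 and 29.3 CPM with DMSO (0.07, SE 0.13, adjusted p = 0.732). With the siRNA mean LEF1 differed by -0.19 (SE 0.11, adjusted p = 0.291), TCF7L2 did not pass in either comparison, and no TCF or LEF factor passed with the siRNAs.

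The members that passed with NRAS knockdown were set beside those of ERK inhibition. The comparisons share no library. Of the 21 members past the threshold with the ERK inhibitor and the 10 with the siRNA mean, 6 passed in both. LGR4, RSPO3, DKK2 and FZD8 were higher in both, WNT7B and WNT5B were lower in both, and none passed in opposite directions. Of 12 alternatives, the siRNA mean call was kept in 12 for LGR4, 11 for DKK2 and 10 for RSPO3. It was kept in only 7 for WNT7B, 6 for FZD8 and 4 for WNT5B, so the overlap depends on the processing. These 6 are 28.6% of the ERK inhibitor calls and 60.0% of the siRNA calls. Over all genes, 658 passed in both with the same sign, which is 15.9% of the ERK inhibitor calls and 56.0% of the siRNA calls, and 36 passed with opposite signs. Across the 41 members the log2 fold changes of both comparisons had Pearson's r of 0.79 and Spearman's rho of 0.60, and across all 14761 genes 0.54 and 0.45. These are correlations across genes, which are not independent replicates and share libraries, and are given as a description.

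**Figure D4:**
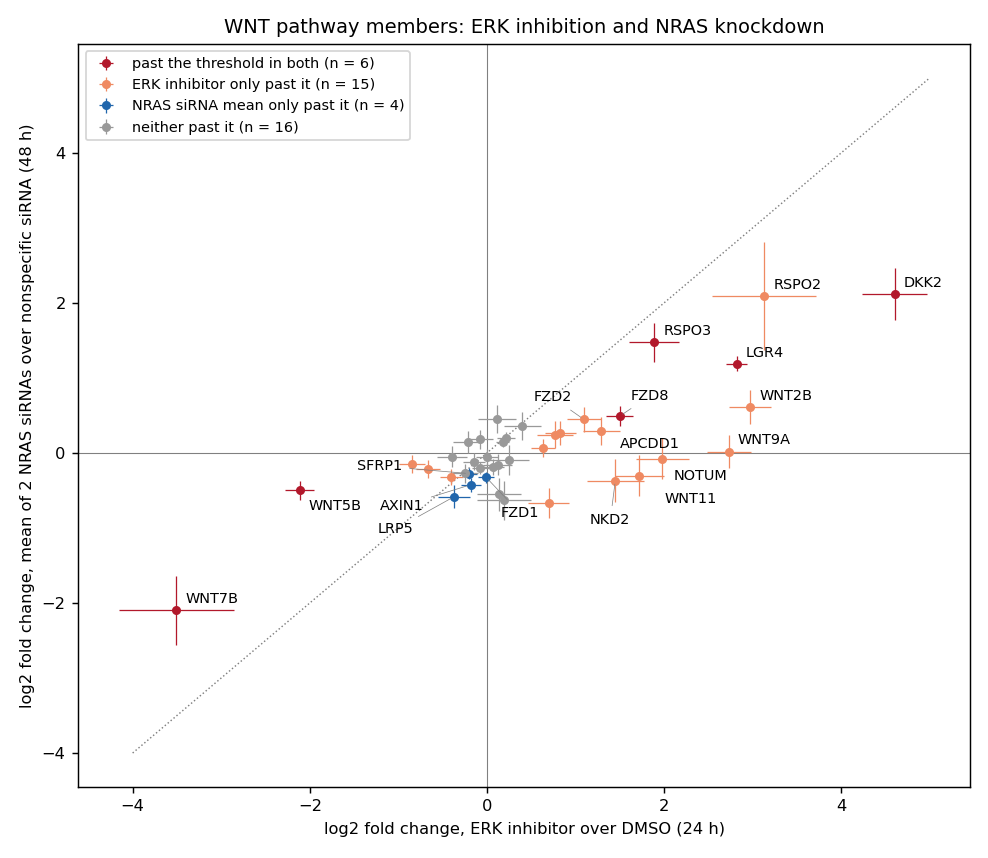
Log2 fold change of the 41 tested members with the ERK inhibitor over DMSO (x axis, 24 h) and with the mean of both NRAS siRNAs over nonspecific siRNA (y axis, 48 h), with bars of 1 SE in each direction and a dotted line of equal values. LGR4, RSPO3, DKK2 and FZD8 lie above 0 and WNT7B and WNT5B below 0 on both axes, and WNT9A, NOTUM, WNT11 and NKD2 lie well right of 0 with siRNA values between -0.37 and 0.02.

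The responses themselves differed for 10 members. The difference tested was the log2 change with the siRNA mean minus that with the ERK inhibitor, for which 7.30% of all genes passed (2.73% higher and 4.57% lower). Of the members 1 was higher (WNT5B, whose fall was smaller with the siRNAs) and 9 were lower. WNT9A differed by -2.71 (SE 0.33, edgeR adjusted p = 0.00169), WNT2B by -2.36 (SE 0.33, adjusted p = 0.00356) and LGR4 by -1.63 (SE 0.14, adjusted p = 0.000295). These and WNT5B (1.62, SE 0.21, adjusted p = 0.00244) kept their calls without any 1 of the 10 libraries. DKK2, FZD8, WNT11, NOTUM, NKD1 and NKD2 were also lower, and each of these 6 lost its call without DMSO replicate 2 (adjusted p between 0.0735 and 0.134) and without ERK inhibitor replicate 1 (between 0.0614 and 0.136). All but DKK2 also lost it without NS siRNA replicate 1 (between 0.0536 and 0.121), and NKD1, NKD2 and DKK2 without 1 or more further libraries. NKD1 was above DMSO in both inhibitor libraries and below NS siRNA in all 4 NRAS siRNA libraries, and the difference between these responses was -1.37 (SE 0.30, adjusted p = 0.0282). Its controls also differed, without passing: NS siRNA stood at 2.44 and 1.99 CPM and DMSO at 1.28 and 1.44 CPM. The siRNA libraries, at 1.23 to 1.49 CPM, lay near DMSO, and the inhibitor libraries, at 2.17 and 2.25 CPM, within the NS siRNA range. The gap between the controls is thus part of this difference. Drug and siRNA, and 24 h and 48 h, differ together here and cannot be told apart. The fall of DUSP6 was -4.61 (SE 0.19) with the inhibitor and -1.24 (SE 0.14) with the siRNA mean.

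The siRNAs shared their NS siRNA libraries, so their results are given side by side. With siRNA 1, 3 members passed (LGR4, RSPO3 and DKK2, all higher), where 2.07% of all genes passed (0.894% higher and 1.17% lower). With siRNA 2, 6 passed, where 6.43% of all genes did (2.59% higher and 3.84% lower): LGR4, RSPO3 and DKK2 were higher and WNT7B, FZD1 and AXIN1 lower. The siRNA 1 count was 1 without either NS siRNA library or siRNA 1 replicate 1, and the siRNA 2 count was 1 without NS siRNA replicate 1 or siRNA 2 replicate 1 and 4 without NS siRNA replicate 2. Between siRNA 1 and siRNA 2 directly, 0 members passed in edgeR and 0 in DESeq2, where 0.427% of all genes passed in edgeR, and 3 members had an unadjusted p under 0.05. They were LEF1 (-0.37, SE 0.13), APCDD1 (-0.50, SE 0.21) and AXIN1 (0.25, SE 0.11), signed as siRNA 1 over siRNA 2. The share of all genes at that unadjusted level was not counted, so these 3 are a description and not calls.

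Further genes of WNT signalling outside the 61 were counted as a description, since their list was chosen with earlier results of these data known. Of 68 listed genes 60 were tested. With the ERK inhibitor 17 were higher and 7 lower, where 13.2% of all genes were higher and 14.8% lower. With the siRNA mean 8 were higher and 3 lower, where 2.97% of all genes were higher and 4.99% lower. Lower calls were thus no more frequent than over all genes with the inhibitor, and close to that share with the siRNA mean. Among the greatest changes past the threshold with the inhibitor, ROR1, a receptor tyrosine kinase for WNT5A, stood at 36.1 and 37.9 CPM, against 10.03 and 7.67 CPM with DMSO (2.07, SE 0.17, edgeR adjusted p = 2.77e-05). DACT1, which encodes a Dishevelled-binding protein, rose by 2.44 (SE 0.40), the receptor gene TNFRSF19 by 2.53 (SE 0.32), APC2, a relative of the tumour suppressor APC, by 1.66 (SE 0.28) and the planar polarity gene PRICKLE2 by 1.41 (SE 0.17). FRZB, a secreted WNT antagonist related to the SFRP genes, fell to 1.03 and 1.23 CPM with the inhibitor, against 5.77 and 3.64 CPM with DMSO (-2.05, SE 0.29, adjusted p = 0.000804). The inhibitor and DMSO libraries did not overlap in ROR1 or FRZB.

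Of the genes that passed with the siRNA mean, ROR1 had the greatest change, at 19.1 and 15.6 CPM with siRNA 1 and 32.9 and 29.6 CPM with siRNA 2, against 9.52 and 11.03 CPM with NS siRNA (1.18, SE 0.15, edgeR adjusted p = 0.00285). It was followed by DKKL1, a Dickkopf relative (1.07, SE 0.24), DACT3, a relative of DACT1 (0.87, SE 0.24), the corepressor TLE4 (0.67, SE 0.14) and PYGO2, a β-catenin coactivator (0.62, SE 0.10). DVL1, which encodes a Dishevelled protein, fell by 0.60 (SE 0.15). ROR1, DKKL1 and DACT3 also passed with the ERK inhibitor, and TLE4, PYGO2 and DVL1 did not (adjusted p = 0.237, 0.973 and 0.147).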

How the data were processed

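RNA was measured in 10 libraries of cells labelled RD, made with a stranded mRNA kit per the labels' protocols, in 5 groups of 2. The authors deposited whole-number counts of reads per gene symbol, not normalised. Tools listed in the submitters' processing notes are HTSeq, SAMtools, TopHat2 and bcl2fastq, and the builds listed are GRCh37 and hg19. Versions, annotation and the strand setting are not given in the sources used, so antisense or overlapping genes cannot be told apart. Each of the 10 deposited sample files matched its column of the series table exactly. Left out were the 5 category lines without a gene name, among them reads without a feature (9.91 to 11.3% of a library), ambiguous reads (0.591 to 0.649%) and reads without a unique alignment (27.0 to 28.9%). The last are missing from gene counts, which lowers genes with near-identical copies.

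Library totals over genes ran from 23224063 to 30768970. Replicate libraries correlated across genes with r between 0.990 and 0.993 (Pearson, log2 CPM), and their counts gave a chi-square of 13.8 to 26.8 times its degrees of freedom, so none was counted as a duplicate. The test was that of edgeR 4.0.16, run in R 4.3.3 on the counts (glmQLFit and glmQLFTest), after TMM scaling (factors 0.968 to 1.03) and a filter on low counts (filterByExpr, groups as given, minimum count 10), in 1 fit of all 10 libraries without covariates, leaving 5 residual degrees of freedom. The common biological coefficient of variation was 0.115. Adjusted p-values are Benjamini-Hochberg over 14761 genes at a threshold of 0.05, and SE is the log2 fold change divided by the root of the F statistic. The fit was tested on simulated data first. CPM are counts over TMM-scaled totals and carry counting error and replicate spread.

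Levels per kilobase use the summed exon length of each gene in GENCODE v29 (basic), matched by symbol for 41 of 41 tested members. That annotation is of a later build than the deposited counts, so these levels are approximate. Promoters are RefSeq windows of GRCh38.p14, and no coordinates were taken from the deposited files. Alternatives were other scalings (RLE and upper quartile), no filter, DESeq2 1.42.0, a fit of the compared groups alone, a replicate block and each library left out. The replicate numbers deviated together with a correlation over 0.1 in 9 of 10 pairs of groups, so by the rule that all must, they were not taken to pair libraries.

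The members and lists were chosen with earlier results of these data known. Full values are given for members past the threshold with the ERK inhibitor or an NRAS siRNA and for AXIN2, NKD1, LEF1, CTNNB1 and LRP6, and other members by range or count. Outside the 61, NRAS, DUSP6 and up to 6 further WNT genes per comparison with the greatest change are named. Statements about untested members were chosen after their values were seen.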

Additional observations from a re-analysis of the deposited data

Results flagged for a closer look

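The responses of 10 members to the ERK inhibitor and to NRAS knockdown differed by the test of the difference itself, which takes the log2 change with the siRNA mean minus that with the inhibitor. The difference was -2.71 for WNT9A, -2.48 for DKK2, -2.36 for WNT2B, -2.06 for NOTUM and -2.02 for WNT11. It was -1.82 for NKD2, -1.63 for LGR4, -1.37 for NKD1, -1.01 for FZD8 and 1.62 for WNT5B. For LGR4, DKK2, FZD8 and WNT5B both responses passed with the same sign, so the difference is one of size. For WNT9A, WNT2B, NOTUM, WNT11, NKD1 and NKD2 the inhibitor response passed and that of the siRNA mean did not. For NKD1 the NS siRNA libraries stood above the DMSO libraries, so the gap between the controls is part of its difference. The treatments also differ in time since treatment, in transfection and in how far DUSP6 fell, and these cannot be told apart.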

How the results depend on the processing

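Each library was left out in turn. That leaves 1 library in its group and fewer residual degrees of freedom, so calls can be lost through lower power alone. The number of members past the threshold then ranged from 15 to 19 with the ERK inhibitor (21 with all libraries), from 1 to 8 for the siRNA mean (10), from 1 to 3 for siRNA 1 (3) and from 1 to 5 for siRNA 2 (6). It ranged from 4 to 10 for the difference between the siRNA and inhibitor responses (10), from 0 to 1 for NS siRNA against DMSO (1), and was 0 throughout between the siRNAs. Fitting the compared groups alone, which leaves fewer libraries to estimate the spread, gave 3 members for the siRNA mean, 1 for siRNA 1, 3 for siRNA 2 and 0 for NS siRNA against DMSO, and 20 for the inhibitor. Upper-quartile scaling gave 6 for the siRNA mean, and no filter on low counts gave 5 for siRNA 1. The cause of these shifts was not tested. No other scaling, filter or tool moved a count by over 1.5 times, and the inhibitor count stayed between 20 and 23 outside the left-out libraries. With a replicate block the counts were 23 for the inhibitor, 15 for the siRNA mean, 9 for siRNA 1, 13 for siRNA 2 and 15 for the difference of responses. Calls that the block added were CTNNB1 (0.18, adjusted p = 0.0418) and SFRP1 with the inhibitor. For the siRNA mean they were RSPO2 (2.07, adjusted p = 0.0235), FZD2 (0.45, adjusted p = 0.0202), FZD4 (0.43, adjusted p = 0.0376), FZD7 and NKD1, and for siRNA 1 they included WNT7B (-2.02, adjusted p = 0.00389). Same-numbered libraries deviated together with correlations of 0.0737 to 0.448, all above 0. The replicate numbers may thus carry a shared difference, which the main fit leaves in its spread. Its source is not given in the labels and was not tested.

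LRP6, uncalled throughout, changed sign. Its inhibitor difference was 0.0147 with RLE scaling, 0.0563 with upper-quartile scaling, 0.0182 without a filter, 0.0111 with DESeq2 and 0.00357 with the replicate block, and it ranged from -0.15 to 0.20 with a library left out. Its siRNA mean difference ranged from -0.117 to 0.0451 with a library left out. With 2 libraries a group and few counts, WNT3A, WNT4 and SFRP2 passed in no comparison without the filter, and the WNT6 call made without it rests on 13 counts.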
